A study of Mus musculus with 9 samples.

Results

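The genes described are 37 markers of cortical excitatory neurons and their layers, a list of gene names out of 43629 genes counted in the frontal cortex of WT and Neat1-/- mice. The rule that names them sets no threshold on a measured value, although the list was drawn up with earlier results of these data known. All 37 were found in the counts by Ensembl ID, and all 37 passed edgeR's filter on low counts, as did 19753 genes in all. RNA came from 5 WT mice (2, 2, 3, 4 and 4 months old) and 4 Neat1-/- mice (numbered 1, 3, 4 and 5, and 3, 3, 4 and 2 months old), all of them female and C57BL/6 by their labels. In Neat1-/- mice the Neat1 gene carries lacZ followed by polyadenylation signals close to its transcription start. RNA of the frontal cortex, depleted of ribosomal RNA, was sequenced from each mouse. The study dissected gray matter and the white matter beneath it, and the sources used here do not state how far the sequenced cortex held white matter. The question behind the comparison was what the loss of Neat1 RNA does to expression in the frontal cortex.

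Excitatory neurons of the cortex release glutamate, arise from progenitors of the dorsal forebrain and settle in layers according to their birth order. Neurons of the upper layers connect mainly within the cortex, layer 5 holds the cells that project to the brainstem and spinal cord, and layer 6 projects mainly to the thalamus, with remnants of the subplate beneath it. Each class is set up by transcription factors, many of which stay on in the adult. In bulk tissue, fewer cells of a class and less RNA per cell cannot be told apart.

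NEUROD transcription factors bind the E-box CAGATG, whose reverse strand reads CATCTG. Of the 37 markers, 26 matched a RefSeq promoter entry on GRCm38.p6, with 38 windows of the 250 bases before a start between them. The motif was in 6 of the 38 windows (15.8%) and in 4745 of 32851 windows of all genes (14.4%), on either strand. The windows belonged to Slc17a6, Nrgn, Neurod2, Mef2c, Cux2 and Etv1. The Neurod2 window is shown because Neurod2 encodes a factor of this family and is 1 of the 4 markers whose groups did not overlap. It covers chr11:98329649-98329895 on the minus strand and ends at the base before the annotated Neurod2 exon, with the motif in capitals from base 133 of 247.
Neurod2: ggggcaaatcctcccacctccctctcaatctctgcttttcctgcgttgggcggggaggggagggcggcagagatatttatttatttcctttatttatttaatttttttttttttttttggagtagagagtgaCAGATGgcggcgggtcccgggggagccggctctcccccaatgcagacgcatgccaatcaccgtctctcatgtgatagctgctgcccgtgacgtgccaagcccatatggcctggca
A match to these letters is a description of the sequence and shows no binding.

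The counts per library summed to between 51276067 and 64648856. As a check of the labels, Neat1 was at 60.8 to 120 CPM in WT mice and 7.11 to 9.72 CPM in the knockouts, a log2 fold change of -3.33 with an adjusted p of 1.27e-06 in edgeR. CPM are counts scaled to a library of 1000000 with TMM factors. WT mice 3 and 4 stood apart over all genes, with a chi-square per degree of freedom of 13 to 15.5 against the other WT mice and of 7.31 against each other, where WT mice 1, 2 and 5 differed by 6.82 to 8.81. Neat1-/- mouse 4 differed from the other Neat1-/- mice by 10.1 to 14.6, and those by 5.65 to 6.53 among themselves. No label says whether the mice were littermates or were processed in batches.

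Levels per exon length, in CPM per kb, placed the neuronal signaling genes first. In WT mice Nrgn (neurogranin, a postsynaptic calmodulin-binding protein) was at 231 and Slc17a7 (the main vesicular glutamate transporter of the cortex) at 155 CPM per kb, and Camk2a (a calcium/calmodulin-dependent kinase of excitatory synapses) came next. Mef2c, Pcp4 and Lamp5 followed at 69.4, 61.5 and 56.1 CPM per kb. The lowest were Foxp2 at 1.32, Tshz2 at 0.545 and Nxph4 at 0.34 CPM per kb. All 37 markers had counts in each of the 9 libraries, from 12 upward. Slc17a6, the vesicular glutamate transporter that is most abundant in the thalamus, was at 5.32 CPM per kb, far below Slc17a7.

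**Figure D1:**
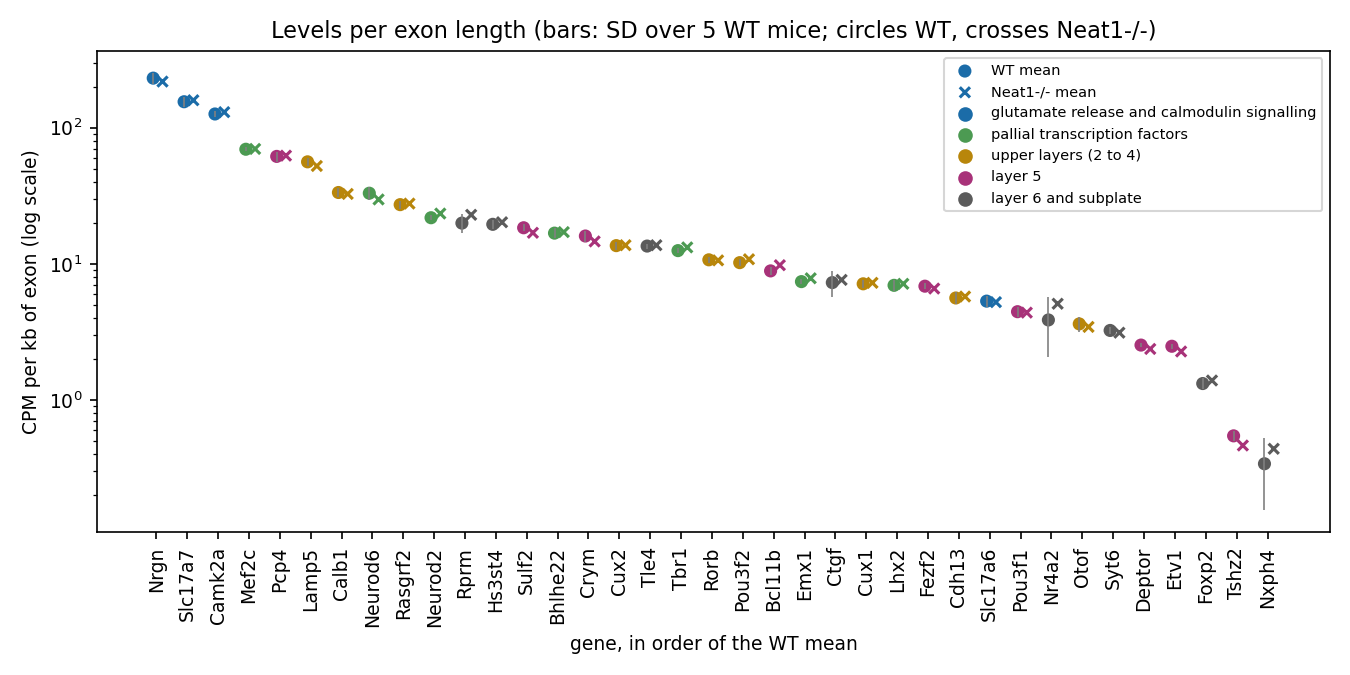
Mean level of each of the 37 markers in CPM per kb of exon on a log scale, ordered by the WT mean (circles, with the SD over 5 WT mice; crosses are the means of 4 Neat1-/- mice; colors are roles). Nrgn, Slc17a7 and Camk2a lead and Nxph4 is lowest.

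The excitatory and layer markers differed little between genotypes. Of 37 markers, 0 passed an adjusted p of 0.05 in edgeR's quasi-likelihood test, against 0.0709% of all genes tested, and 0 passed in DESeq2 or in limma voom. With no adjustment, 3 had p under 0.05 and were higher in Neat1-/- mice (8.11%, against 4.27% of all genes), and 0 were lower (against 4.03% of all genes). The log2 fold change was above 0 for 22 markers and below 0 for 15, with a median of 0.021, where the median over all genes was -0.00023. Without WT mice 3 and 4 the median was -0.0084, and by unadjusted p 4 markers were higher (Neurod2, Tbr1, Cux1 and Bcl11b, against 3.81% of all genes in that fit) and 3 lower (Nrgn, Crym and Sulf2, against 3.48%). With 1 library left out the count of higher markers ran from 1 (without Neat1-/- mouse 1, against 2.39% of all genes) to 5 (without WT mouse 1, against 3.34%). That of lower markers ran from 0 to 5 (without Neat1-/- mouse 4, against 3.53% of all genes). Leaving out 1 library moved the log2 fold change by more than 1.5 times for 31 of the 37 markers. The other 6 were Neurod2, Tbr1, Bcl11b, Deptor, Lamp5 and Rprm.

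The data bound the differences closely for most of these genes. The 95% interval of the fold change lay within 1.2-fold in either direction for 30 of the 37 markers and within 1.5-fold for 35. The markers whose interval was wider than 1.5-fold were Nr4a2 and Nxph4, which also had the largest spread between mice. The median coefficient of variation among WT mice was 7.26% for the markers and 8.81% for all genes. The summed level of the 37 genes was 5155 to 5551 CPM in WT and 5281 to 5443 CPM in Neat1-/- mice, so the range of the Neat1-/- mice lay inside that of the WT mice.

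**Figure D2:**
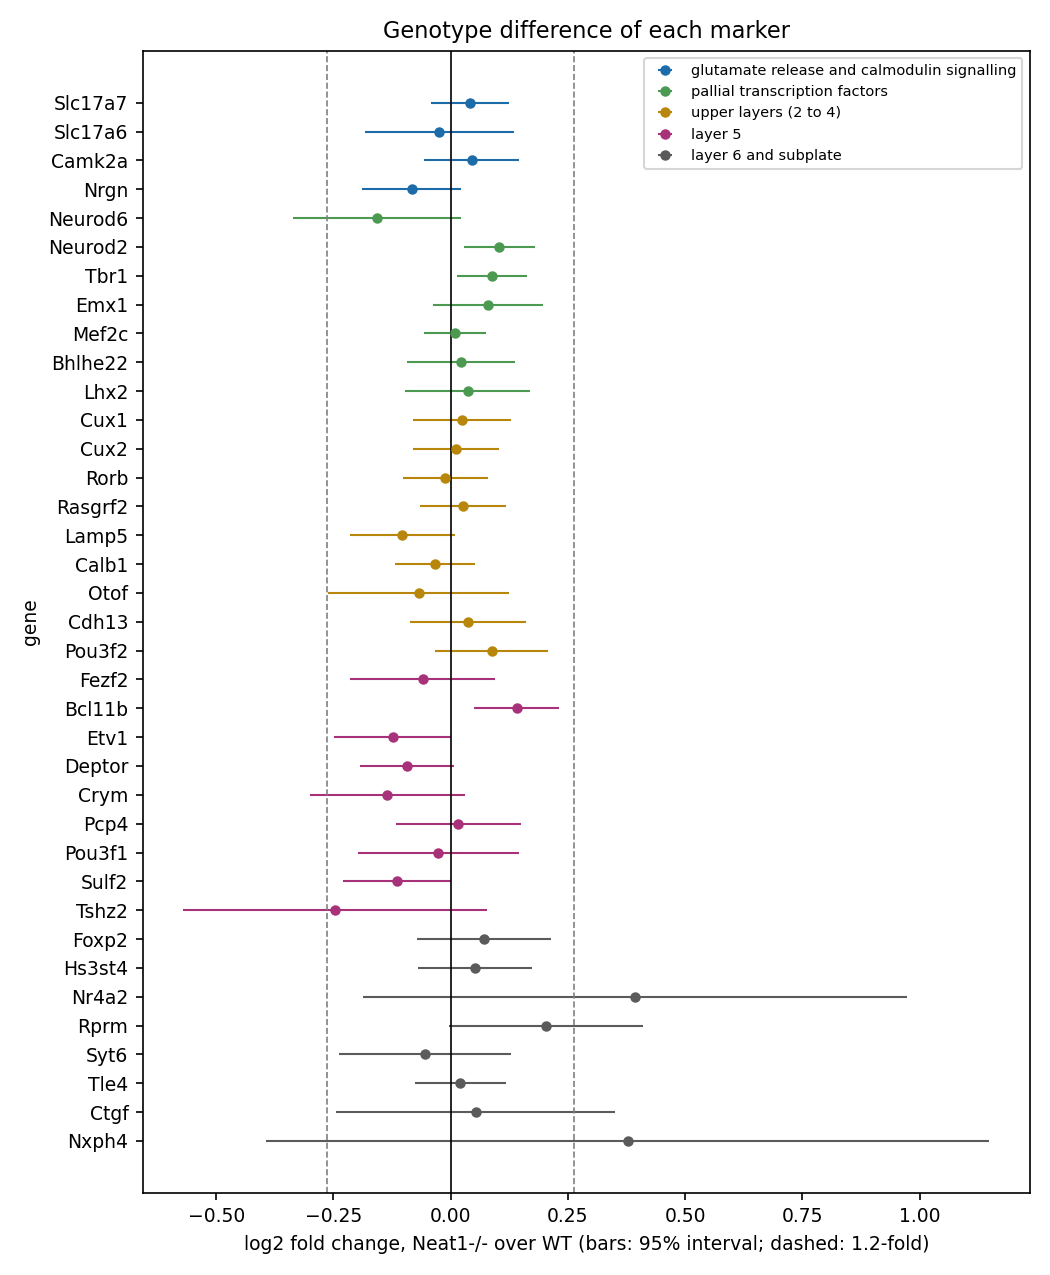
Log2 fold change of each marker, Neat1-/- over WT, with its 95% interval from edgeR's quasi-likelihood fit with age, grouped by role (colors); dashed lines mark 1.2-fold. The intervals of Neurod2, Tbr1 and Bcl11b lie above 0, and those of Nr4a2 and Nxph4 are the widest.

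Of the 4 genes of glutamate release and calmodulin signaling, 0 reached an unadjusted p of 0.05 in edgeR, and all 4 intervals lay within 1.2-fold. Slc17a7 was at 936, 858, 787, 771 and 829 CPM in WT mice 1 to 5 and 846, 887, 830.4 and 874 CPM in Neat1-/- mice 1, 3, 4 and 5. Camk2a was at 938, 1013, 974, 886 and 901 CPM in WT mice 1 to 5 and 937, 922, 1062 and 965 CPM in Neat1-/- mice 1, 3, 4 and 5. In both genes the groups overlapped, and WT mouse 1 was highest in Slc17a7 while Neat1-/- mouse 4 was highest in Camk2a. The log2 fold change was 0.041 (95% interval -0.042 to 0.13) for Slc17a7 and 0.045 (95% interval -0.058 to 0.15) for Camk2a. Slc17a6 had a log2 fold change of -0.024 (95% interval -0.18 to 0.14), and Nrgn one of -0.083 (95% interval -0.19 to 0.022), which ranged from -0.14 (without Neat1-/- mouse 4) to -0.05 (without WT mouse 1) with 1 library left out. The genomic span of Camk2a overlaps 2 other annotated genes on the same strand, and the effect of this on its counts was not tested.

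Among the transcription factors of the dorsal forebrain, Neurod2 and Tbr1 were the markers with separated groups. Neurod2 (ENSMUSG00000038255, chromosome 11, 98325415 to 98329648), a basic helix-loop-helix factor of differentiating excitatory neurons, was at 64.0, 70.5, 67.4, 70.5 and 70.2 CPM in WT mice 1 to 5 and 75.4, 73.4, 73.5 and 72.2 CPM in Neat1-/- mice 1, 3, 4 and 5. Each Neat1-/- mouse lay above each WT mouse, with WT mouse 1 the lowest. The means were 68.5 ± 2.86 CPM in WT (SD, n = 5) and 73.6 ± 1.33 CPM in Neat1-/- mice (SD, n = 4) (log2 fold change 0.10, standard error 0.0348, p = 0.0107, adjusted p = 0.543, edgeR), and the two-sided exact permutation test gave p = 0.00794, the smallest that 5 against 4 mice allow. The adjusted p of Neurod2 did not pass the threshold.

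Tbr1 (ENSMUSG00000035033, chromosome 2, 61802930 to 61814114), a T-box factor of early-born and layer 6 neurons, was at 70.5, 63.9, 68.6, 70.2 and 68.6 CPM in WT mice 1 to 5 and 73.4, 71.1, 74.4 and 71.7 CPM in Neat1-/- mice 1, 3, 4 and 5. The groups again did not overlap, though Neat1-/- mouse 3 was only just above WT mouse 1, and WT mouse 2 was lowest. The means were 68.4 ± 2.63 CPM in WT (SD, n = 5) and 72.7 ± 1.51 CPM in Neat1-/- mice (SD, n = 4) (log2 fold change 0.088, standard error 0.0344, p = 0.0242, adjusted p = 0.58, edgeR), and the two-sided exact permutation p was 0.0159. Both genes remained higher in Neat1-/- mice in all 20 alternative analyses, at an unadjusted p under 0.05 in 19 of them for Neurod2 and in 14 for Tbr1, but at an adjusted p under 0.05 in 0. Adjusted p over these alternatives ranged from 0.0993 to 0.893 for Neurod2 and from 0.0862 to 0.893 for Tbr1.

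The most abundant factor was Mef2c, a MADS-box factor used in synapse development and also expressed by microglia and vascular cells. It was at 1101, 1145, 1055, 1086 and 1063 CPM in WT mice 1 to 5 and 1118, 1082, 1125 and 1064 CPM in Neat1-/- mice 1, 3, 4 and 5. Its highest mouse was 1.08-fold above its lowest, the narrowest range of the 37 markers, and its log2 fold change was 0.0097 (95% interval -0.057 to 0.076). Emx1, a homeobox gene of the dorsal forebrain, Lhx2, a LIM-homeobox gene, and Bhlhe22, a helix-loop-helix repressor, had log2 fold changes of 0.08, 0.036 and 0.022, with overlapping groups. Neurod6, a relative of Neurod2, had a value of the opposite sign, -0.16 (95% interval -0.34 to 0.023), which ranged with 1 library left out from -0.22 (without Neat1-/- mouse 4) to -0.08 (without WT mouse 2). Of the 7 factors, 2 were higher at an unadjusted p under 0.05 (28.6%, against 4.27% of all genes) and 0 lower (against 4.03%), and 6 had values above 0.

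The upper-layer markers had narrow intervals that included 0, although that of Lamp5 lay mostly below it. For all 9 of them the 95% interval lay within 1.2-fold, 5 had values above 0 and 4 below, and 0 reached an unadjusted p of 0.05 in edgeR. Rasgrf2, a guanine nucleotide exchange factor for Ras in layers 2 and 3, was at 243, 279, 244, 251 and 238 CPM in WT mice 1 to 5 and 244, 262, 247 and 269.8 CPM in Neat1-/- mice 1, 3, 4 and 5. Calb1 (calbindin, a calcium buffer that interneurons also make) was at 170.1, 177, 149, 156 and 156 CPM in WT mice 1 to 5 and 156, 156, 157 and 162 CPM in Neat1-/- mice 1, 3, 4 and 5. The groups overlapped for both, and WT mouse 2 had the highest level of each.

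Cux1 and Cux2, cut-like homeobox genes of layers 2 to 4, had log2 fold changes of 0.023 and 0.011. Rorb, a nuclear receptor of layer 4, had one of -0.011. The other values were 0.026 for Rasgrf2, -0.033 for Calb1, -0.069 for Otof (otoferlin), 0.037 for Cdh13 (T-cadherin), 0.087 for Pou3f2, a POU-domain factor, and -0.10 for Lamp5, a LAMP-family membrane protein that a class of interneurons also makes. Cux1, Cux2 and Cdh13 overlap other annotated genes, and no source used here says whether counting kept strands apart.

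Layer 5 held the other 2 markers with separated groups, 1 in each direction. Bcl11b (ENSMUSG00000048251, chromosome 12, 107910403 to 108003602), the zinc-finger factor CTIP2 of neurons that project below the cortex and also of striatal neurons, was at 75.5, 73.8, 66.4, 67.9 and 75.9 CPM in WT mice 1 to 5 and 79.0, 79.4, 77.7 and 81.1 CPM in Neat1-/- mice 1, 3, 4 and 5. All 4 Neat1-/- mice lay above all 5 WT mice, and WT mice 3 and 4, which stood apart over all genes, were the lowest. The means were 71.9 ± 4.44 CPM in WT (SD, n = 5) and 79.3 ± 1.41 CPM in Neat1-/- mice (SD, n = 4) (log2 fold change 0.14, standard error 0.0421, p = 0.00552, adjusted p = 0.474, edgeR), with a two-sided exact permutation p of 0.0238. Without WT mice 3 and 4 the log2 fold change was 0.078 (adjusted p = 0.654, edgeR). Bcl11b was the 1 marker that passed an adjusted p of 0.05 in any alternative, at 0.0497 with limma on the deposited log2 values, and over the 20 alternatives its adjusted p reached 0.893. Its unadjusted p was under 0.05 in all 20, which draw on the same mice. The share of all genes that passed with the deposited values is not given here.

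Deptor (ENSMUSG00000022419, chromosome 15, 55112317 to 55259271), an inhibitor of mTOR kinase, was the marker with separated groups in the other direction. It was at 21.4, 22.9, 23.1, 23.1 and 21.5 CPM in WT mice 1 to 5 and 20.5, 21.2, 21.1 and 21.2 CPM in Neat1-/- mice 1, 3, 4 and 5. WT mice 1 and 5 lay close above the Neat1-/- mice, and the means were 22.4 ± 0.888 CPM in WT (SD, n = 5) and 21.0 ± 0.369 CPM in Neat1-/- mice (SD, n = 4) (log2 fold change -0.094, standard error 0.0462, p = 0.0636, adjusted p = 0.622, edgeR), with a two-sided exact permutation p of 0.0397. Its region holds 1 annotated gene on the opposite strand. In all, 4 markers had separated groups (Neurod2, Tbr1, Bcl11b and Deptor), which is 10.8% of the 37 against 2.67% of all genes tested. Separated groups can only give a small permutation p, and that test leaves age out. The permutation p-values of these 4 markers therefore add nothing to their separation.

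Of the 9 layer 5 markers, 7 had values below 0, and their median log2 fold change was -0.094. Sulf2, an extracellular sulfatase that edits heparan sulfate, was at 112, 116, 107, 99.8 and 104 CPM in WT mice 1 to 5 and 98.9, 87.4, 105 and 106 CPM in Neat1-/- mice 1, 3, 4 and 5. Neat1-/- mouse 3 was lowest and the groups overlapped, with a log2 fold change of -0.11 (95% interval -0.23 to 0.0015) in edgeR. It was -0.18 without Neat1-/- mouse 4, -0.14 without WT mice 3 and 4 (adjusted p = 0.645, edgeR) and -0.059 without Neat1-/- mouse 3. Crym, a thyroid hormone-binding protein, had a log2 fold change of -0.13 (95% interval -0.30 to 0.03), which was -0.23 without WT mice 3 and 4 (adjusted p = 0.509, edgeR), -0.20 without Neat1-/- mouse 5 and -0.071 without WT mouse 5.

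Etv1, an ETS-family factor, had a log2 fold change of -0.12 (95% interval -0.25 to 0.0011), or -0.071 without Neat1-/- mouse 3. Fezf2, the zinc-finger factor that specifies corticospinal neurons, had one of -0.059, and Pou3f1, a POU-domain factor, one of -0.027. Pcp4, a calmodulin-binding peptide, was at 0.016. Tshz2, a teashirt-family factor, had the lowest value of the 37, -0.25 (95% interval -0.57 to 0.078), and ranged in Neat1-/- mice alone from 2.60 CPM in mouse 3 to 5.00 CPM in mouse 4. Without mouse 3 its log2 fold change was -0.12, and without mouse 4 it was -0.43. Neat1-/- mouse 3 was the lowest of all 9 mice in 8 markers, namely Nrgn, Neurod6, Lamp5, Etv1, Pou3f1, Sulf2, Tshz2 and Syt6. WT mouse 5 was the lowest in 7 markers, and WT mice 2, 3 and 4 in 5 each. Neat1-/- mouse 3 also had the lowest level of oligodendrocyte genes, with a median of -0.485 log2 units from the mean of the mice. It had the second highest level of striatal genes, with a median of 0.237. The part of these in the marker values was not tested.

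**Figure D3:**
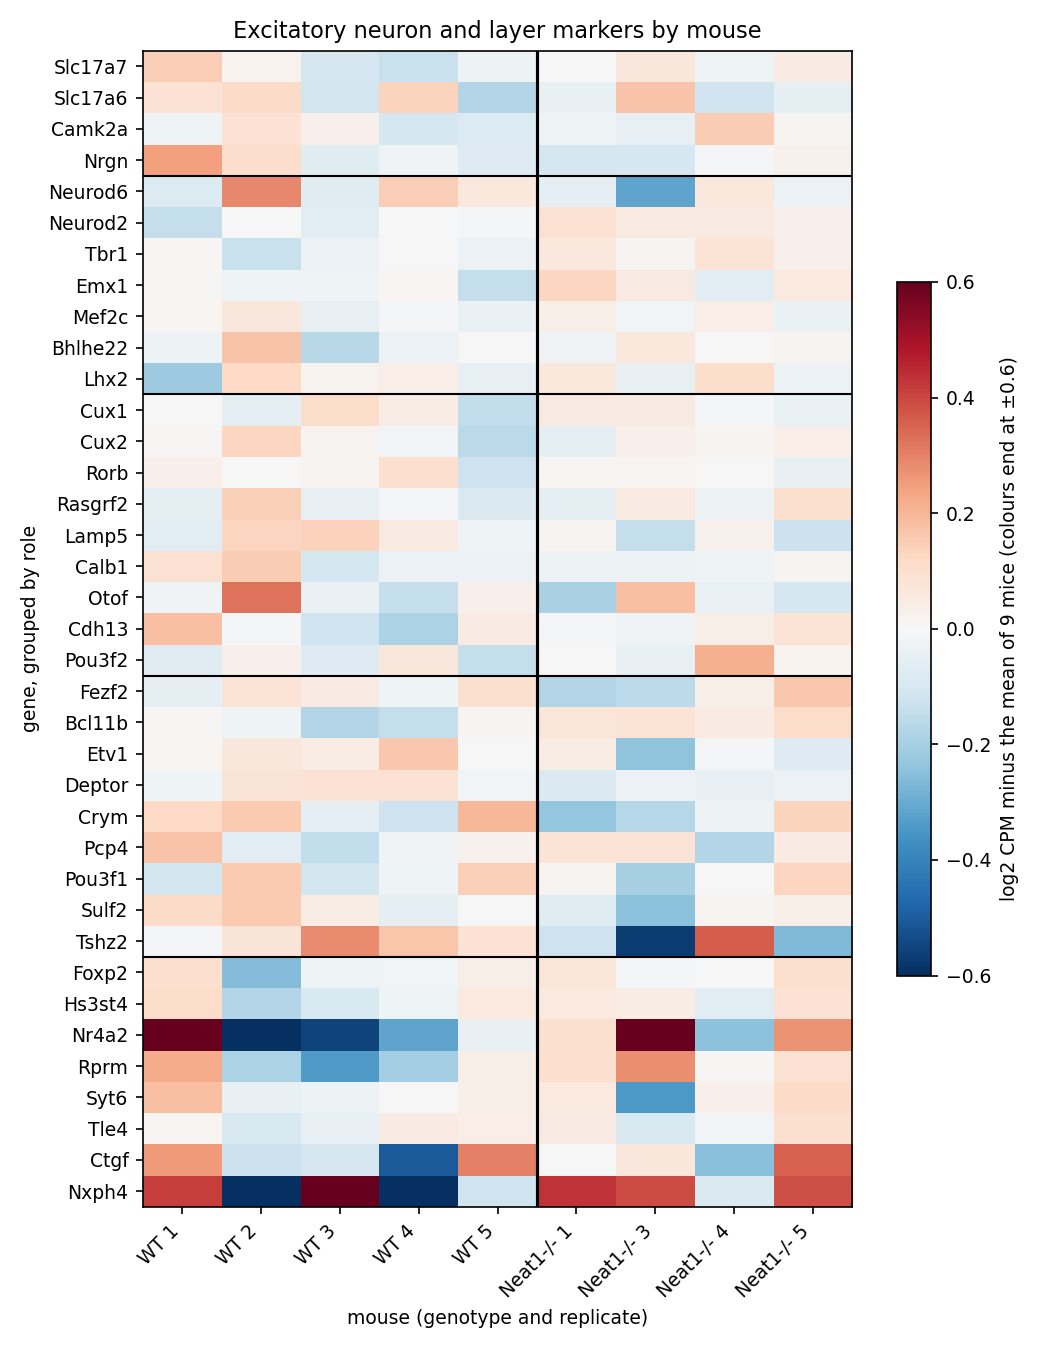
Log2 CPM of each marker in each mouse, less the mean of the 9 mice, with roles separated by horizontal lines and genotypes by the vertical line; colors end at ±0.6. Most rows are pale, and the deepest colors are in Nr4a2, Nxph4, Tshz2 and Ctgf and do not follow genotype.

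Layer 6 and subplate markers varied most between WT mice of the 5 roles. Their median coefficient of variation among WT mice was 12.5%, against 4.28% for the forebrain transcription factors, and 7 of the 8 had values above 0. Nr4a2 (NURR1, a nuclear receptor of the subplate and claustrum that also responds to neuronal activity) was at 28.1, 9.50, 11.4, 13.4 and 16.2 CPM in WT mice 1 to 5 and 17.9, 30.5, 14.1 and 20.2 CPM in Neat1-/- mice 1, 3, 4 and 5. WT mouse 1 and Neat1-/- mouse 3 were far above the rest, and the highest mouse was 3.21-fold above the lowest. The log2 fold change was 0.39 (95% interval -0.19 to 0.97), with 0.74 without WT mouse 1 (adjusted p = 0.633, edgeR) and 0.14 without Neat1-/- mouse 3.

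Rprm (reprimo, a cell-cycle arrest protein) was high in the same pair of mice. It was at 35.8, 26.9, 24.2, 26.6 and 31.4 CPM in WT mice 1 to 5 and 32.9, 37.2, 30.8 and 32.7 CPM in Neat1-/- mice 1, 3, 4 and 5. The groups overlapped through WT mice 1 and 5, and the log2 fold change was 0.20 (95% interval -0.0033 to 0.41). Without WT mouse 1 it was 0.29 (adjusted p = 0.569, edgeR), and without WT mice 3 and 4 it was 0.093 (adjusted p = 0.871, edgeR).

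WT mouse 1 and Neat1-/- mouse 3 were also the mice with the highest levels of striatal genes, a list of 13 of which 12 were tested. The median striatal gene was 0.38 log2 units above the mean of the mice in WT mouse 1, 0.237 in Neat1-/- mouse 3, 0.128 in Neat1-/- mouse 5 and -0.183 to -0.00385 in the others. The summed level of the striatal list was 225.5 to 311.7 CPM in WT and 225.0 to 273.6 CPM in Neat1-/- mice. The immediate early genes, which respond to activity, had a median of -0.265 in WT mouse 1 and -0.103 in Neat1-/- mouse 3. Bcl11b and Foxp2 are also made by striatal neurons. The part of striatal tissue or of neuronal activity in these values was not tested.

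**Figure D4:**
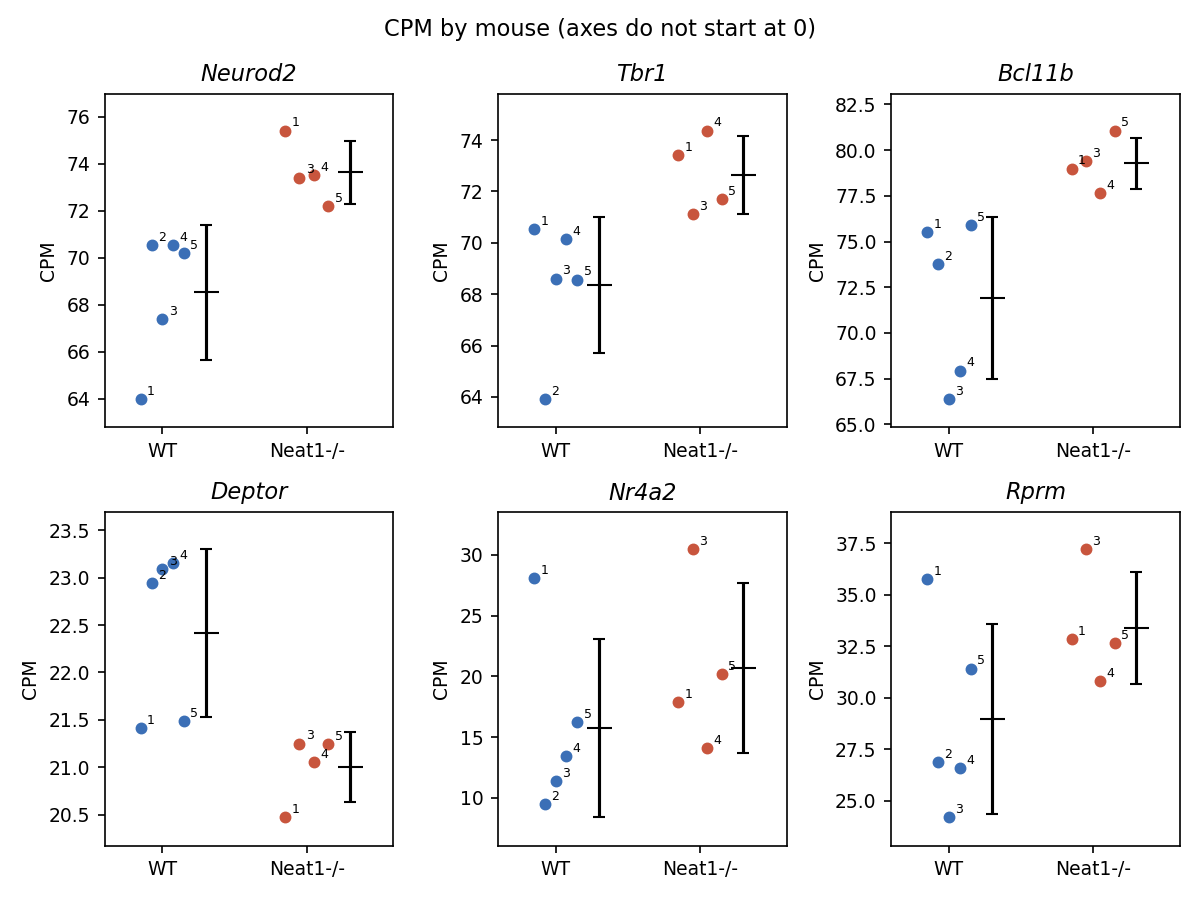
CPM of 6 markers in each mouse (numbers are replicates), with the mean and SD of each genotype beside the points; axes do not start at 0. Neurod2, Tbr1, Bcl11b and Deptor have separated groups, while Nr4a2 and Rprm are both highest in WT mouse 1 and Neat1-/- mouse 3.

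The more abundant layer 6 genes were steadier. Tle4, a Groucho-family corepressor of corticothalamic neurons, was at 77.7, 72.4, 74.6, 79.9 and 79.3 CPM in WT mice 1 to 5 and 80.1, 72.4, 76.4 and 82.6 CPM in Neat1-/- mice 1, 3, 4 and 5. Hs3st4, a heparan sulfate sulfotransferase, was at 68.2, 55.9, 59.3, 62.1 and 65.8 CPM in WT mice 1 to 5 and 65.8, 65.1, 60.2 and 67.0 CPM in Neat1-/- mice 1, 3, 4 and 5. The groups overlapped for both, and the log2 fold changes were 0.021 (95% interval -0.075 to 0.12) and 0.051 (95% interval -0.07 to 0.17). Foxp2, a forkhead factor, had one of 0.071, and Syt6, a synaptotagmin, one of -0.055.

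Ctgf, a secreted matrix protein of layer 6b that fibroblasts also make and that the annotation calls Ccn2, had a log2 fold change of 0.053 (95% interval -0.24 to 0.35). It was lowest in WT mouse 4 at 14.7 CPM, the mouse in which the meningeal, choroid plexus and ependymal genes were lowest too, with a median of -0.975 log2 units from the mean of the mice. WT mouse 2 was highest in those genes, with a median of 0.363, and had 19.15 CPM of Ctgf. Ctgf was highest in Neat1-/- mouse 5 at 26.7 CPM, where their median was -0.022. The part of those genes in the Ctgf values was not tested. Nxph4, a neurexophilin, was counted 12 to 52 times per library and had a log2 fold change of 0.38 (95% interval -0.39 to 1.15), which ranged from 0.17 (without WT mouse 4) to 0.64 (without WT mouse 3) with 1 library left out.

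Rorb and Tle4 lie on chromosome 19, which also carries Neat1, at 13.1 and 8.6 Mb from it. Their groups overlapped, with log2 fold changes of -0.011 and 0.021.

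The balance of upper against deep layers was measured in each library as the mean log2 CPM of the 9 upper-layer markers less that of the 17 markers of layers 5 and 6. It was 2.00, 2.32, 2.14, 2.24 and 2.00 log2 units in WT mice 1 to 5 and 2.07, 2.14, 2.16 and 2.01 in Neat1-/- mice 1, 3, 4 and 5. The groups overlapped, with means of 2.14 ± 0.14 (SD, n = 5) in WT and 2.1 ± 0.071 (SD, n = 4) in Neat1-/- mice, a difference of -0.041. Each marker counted equally, and Nr4a2 and Nxph4, with the largest spread between mice, had log2 fold changes of 0.39 and 0.38. The deep markers pool layer 5 (median log2 fold change -0.094) with layer 6 and subplate (median 0.062), so the balance describes neither alone. How far Nr4a2 and Nxph4 set this small difference, and its sign, was not tested. WT mouse 2 had the highest balance, and it was also the highest of the 9 mice in 10 of the 37 markers and the lowest in 5, Tbr1 and the layer 6 genes Foxp2, Hs3st4, Nr4a2 and Tle4.

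Age was the other condition in the labels, and most of the markers had slopes below 0 over months, none of them past the adjusted threshold in edgeR. Of 37 markers, 0 passed an adjusted p of 0.05 for the slope over months, against 0.0% of all genes. With no adjustment, 4 had p under 0.05 and were lower with age (10.8%, against 3.12% of all genes), and 0 were higher (against 2.86% of all genes). The slope was below 0 for 26 markers and above 0 for 11, with a median of -0.028 log2 units per month, where the median over all genes was 0.0012. The 4 lower ones were Slc17a7, Nrgn, Calb1 and Cux2. WT mouse 1, aged 2 months, was the highest mouse in Slc17a7 and Nrgn, and WT mouse 2, of the same age, in Calb1 and Cux2.

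Slc17a7 had means of 889 ± 41.3 CPM at 2 months, 839.9 ± 50.2 CPM at 3 months and 810.0 ± 34.0 CPM at 4 months (SD, n = 3 each). Its log2 slope was -0.068 per month (95% interval -0.12 to -0.017, adjusted p = 0.82) in edgeR. Nrgn was at 387, 351, 311, 322 and 310.1 CPM in WT mice 1 to 5 and 305, 304, 324 and 332 CPM in Neat1-/- mice 1, 3, 4 and 5. Its highest values were those of the 2-month-old WT mice, and its slope was -0.08 per month (95% interval -0.14 to -0.017, adjusted p = 0.82) in edgeR. The slopes of Calb1 and Cux2 were -0.059 per month (95% interval -0.11 to -0.0075, adjusted p = 0.82) and -0.056 per month (95% interval -0.11 to -0.00014, adjusted p = 0.82) in edgeR. Cux2 was at 138, 150, 139, 136 and 122 CPM in WT mice 1 to 5 and 132, 140.1, 139 and 141 CPM in Neat1-/- mice 1, 3, 4 and 5, with the 2-month-old WT mouse 2 highest and the 4-month-old WT mouse 5 lowest. Without WT mouse 1 the slope of Slc17a7 was -0.041 and that of Nrgn -0.046 log2 units per month. In that fit 2 markers, not 4, were lower with age at an unadjusted p under 0.05 in edgeR (against 1.94% of all genes). They were Cux2 and Rasgrf2, and Rasgrf2 was not among the 4 named above. Slc17a7, Nrgn and Calb1 were no longer under 0.05. Without WT mouse 5, 7 markers were lower with age by the same measure, against 6.36% of all genes.

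**Figure D5:**
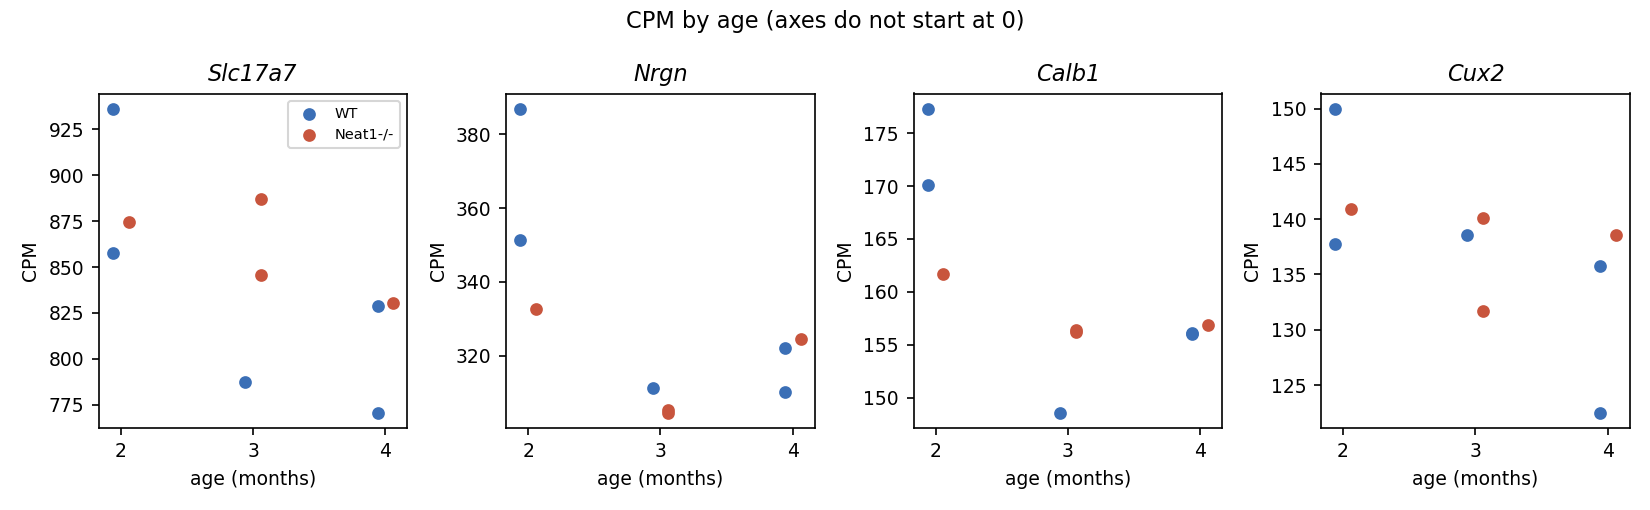
CPM of Slc17a7, Nrgn, Calb1 and Cux2 against age in months, 1 point per mouse (WT and Neat1-/- in different colors, set slightly apart); axes do not start at 0. A 2-month-old WT mouse holds the highest value of each gene, and the points at 3 and 4 months overlap.

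Other lists of genes show what surrounded the excitatory markers in the same libraries. In all 12 lists 0 genes passed an adjusted p of 0.05 in edgeR. The counts of genes called higher or lower below are at p under 0.05 with no adjustment. By the same measure 4.27% of all genes were higher and 4.03% lower, or 3.81% and 3.48% without WT mice 3 and 4. Among 32 other excitatory neuron and layer genes 2 were higher, 3 were lower and the median log2 fold change was 0.016, and the most abundant were Sv2b (a synaptic vesicle protein, -0.021) and Nell2 (0.011). The 16 pan-neuronal genes had 1 higher and 1 lower and a median of 0.018, with Snap25 at 0.028 and Map2 at -0.012. The 25 genes of GABAergic interneurons had 1 higher and 0 lower and a median of 0.014, with Gad1 at 0.022. Neuronal lists thus had medians close to that of the 37 markers.

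The medians of the oligodendrocyte, immediate early and microglial genes were further from 0, as were those of the remaining lists below. Of 12 oligodendrocyte genes 6 were lower (against 4.03% of all genes) and 0 higher (median -0.27, with Mbp at -0.17). Their summed level was 2384 to 3751 CPM in WT and 2028 to 3093 CPM in Neat1-/- mice. Without WT mice 3 and 4, 3 of them were lower, against 3.48% of all genes. Of 10 immediate early genes 5 were lower and 0 higher (median -0.36, with Arc at -0.41 and Junb at -0.24), and 9 were lower without WT mice 3 and 4, where 3.48% of all genes were. Of 10 microglial genes 5 were higher (against 4.27% of all genes) and 0 lower (median 0.089, with Csf1r at 0.0056). Without WT mice 3 and 4, 1 was higher, against 3.81% of all genes, and the microglial median was 0.031. In that fit the medians of the oligodendrocyte and immediate early genes were -0.27 and -0.46. Their part in the marker values was not tested.

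The remaining lists were striatum (3 higher and 1 lower of 12 tested, or 1 and 1 without WT mice 3 and 4, median 0.063, with Pde10a at -0.14), astrocytes (1 higher and 0 lower of 11, median 0.042, with Slc1a2 at 0.040 and Aldoc at 0.043) and hippocampus (0 higher and 1 lower of 9, median -0.085, with Trpc6 at 0.073 and Cabp7 at -0.025). The lists of the thalamus (5 tested, median -0.025, with Ramp3 at -0.12 and Prkcd at 0.028), of vascular cells (10 tested, median -0.023, with Rgs5 at 0.039 and Flt1 at -0.096) and of meninges, choroid plexus and ependyma (9 tested, median -0.19, with Col1a2 at -0.29 and Col1a1 at -0.76) had 0 higher and 0 lower. Without WT mice 3 and 4 the last had 4 lower, where 3.48% of all genes were.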

How the data were processed

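RNA-seq libraries from 9 mice were analysed. Raw counts for each Ensembl gene were deposited by the authors, with normalized log2 values for 13456 of the 43629 genes (36 of the 37 markers, without Nxph4) from which covariates had been removed. The submitters' processing notes name STAR 2.5.0, HTSeq 0.8.0, limma and mm10. The supplementary methods name TopHat with Bowtie and another HTSeq release instead. Strand use in counting is not given in the sources used here.

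Names and GRCm38 positions came from GENCODE by Ensembl ID (42548 IDs named). Ctgf was matched to Ccn2 through its RefSeq synonym. Of the markers, 13 overlap another annotated gene in genomic span, on either strand. Counts were tested with edgeR 4.0.16 (glmQLFit, glmQLFTest, TMM, filterByExpr by genotype, 19753 genes, R 4.3.3) with genotype and age (months) as terms and p-values adjusted over all genes by Benjamini-Hochberg. The common biological coefficient of variation was 0.0922. The standard error is the size of the log2 fold change over the square root of F. Single genes had a two-sided exact permutation test of CPM over all splits of the mice. Deviations used log2 CPM with a prior count of 2. Alternatives were DESeq2 1.42.0, limma 3.58.1 (voomWithQualityWeights, and on the deposited log2 values), other size factors and filters, other age terms, a replicate block and libraries left out. P-values set each difference against the spread between these mice.

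The members and lists were chosen with earlier results of these data known. All 37 markers are named. Values in every mouse are given for the 2 most abundant of each role and those at an unadjusted p under 0.05 by genotype, and for Deptor, Nr4a2, Rprm, Nrgn and Cux2, which were chosen after their values were seen. For the other lists, the 2 most abundant genes are named, apart from some that are not reported here. Tables and plots were made in Python 3.11.15 with pandas 2.3.3, NumPy 2.4.6, Matplotlib 3.10.9 and SciPy 1.17.1.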

Additional observations from a re-analysis of the deposited data

Results flagged for a closer look

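Of 110 groups of 4 or 5 mice examined, 7 had a mouse far from the others of its genotype by Dixon's test, which flags about 1 in 20 by chance. Emx1 was lowest in WT mouse 5 at 15.0 CPM, where the next was at 16.2 CPM. Among Neat1-/- mice, Calb1 was highest in mouse 5 at 162 CPM (next 157 CPM), Pcp4 lowest in mouse 4 at 56.0 CPM (next 65.4 CPM), and Nxph4 lowest in mouse 4 at 0.554 CPM (next 0.783 CPM). Of the other lists, the median deviation from the mean of the mice was highest in WT mouse 2 for the genes of GABAergic interneurons (0.042 log2 units, next -0.0203) and in WT mouse 1 for striatal genes (0.38, next -0.109). It was lowest in WT mouse 4 for genes of meninges, choroid plexus and ependyma (-0.975, next 0.0441). WT mouse 1 is also the WT mouse with the most Nr4a2 and Rprm.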

How the results depend on the processing

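Of the 37 markers, 19 kept the direction of the genotype difference in every alternative that gave them a value (20, or 18 for Nxph4, which the CPM filter and the deposited log2 values leave out), and 18 turned in some, none of which had a log2 fold change beyond 0.069 in either direction. Of 738 genotype values under these alternatives 682 kept their direction. Markers lower at an unadjusted p under 0.05, 0 as reported, numbered 3 with DESeq2, 3 with limma voom, 1 with DESeq2 size factors, 4 with library size alone, 5 without a filter, 3 with CPM over 1 in at least 4 libraries, 1 without age, 3 without both WT mice 3 and 4, and 3 with limma on the deposited log2 values. Markers higher, 3 as reported, numbered 5 without a filter and 6 with the deposited log2 values, where 1 passed the adjusted threshold. With 1 library left out, higher markers numbered from 1 (without Neat1-/- mouse 1) to 5 (without WT mouse 1) and lower ones from 0 to 5 (without Neat1-/- mouse 4). For age, markers lower numbered 8 without a filter and 2 with the replicate block, and with 1 library left out from 2 (without WT mouse 1) to 7 (without WT mouse 5), with 0 to 1 higher (1 without WT mouse 2). Shares of all genes are given above for some of the fits with libraries left out. For the other fits they are not given here, so those counts cannot be set against all genes. The cause of the differences between fits was not tested. Mice that share a replicate number deviated little together: the correlation of their deviations was 0.044, -0.0447, 0.137 and -0.0773. These values cannot tell whether such mice were littermates or were processed together, which no label says. With the replicate block the genotype difference had 0 markers past the adjusted threshold, and by unadjusted p 3 were higher and 0 lower.

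Log2 fold changes that turned sign were Cux2 with limma voom (-0.0041), Mef2c with library size alone (-0.00096) and with the CPM filter (-0.0012), Cux1 (-0.0092) and Pou3f1 (0.020) with age as classes, and Otof (0.010), Pcp4 (-0.0039), Pou3f1 (0.021) and Tle4 (-0.0048) with the replicate block. Without both WT mice 3 and 4 they were Slc17a7 (-0.010), Slc17a6 (0.010), Mef2c (-0.0084), Bhlhe22 (-0.031), Rorb (0.034), Cdh13 (-0.048), Pcp4 (-0.019) and Ctgf (-0.09). With the deposited log2 values they were Slc17a6 (0.0067), Bhlhe22 (-0.021), Rorb (0.036), Cdh13 (-0.023), Pcp4 (-0.020) and Ctgf (-0.086). With 1 library left out, the log2 fold change ranged from -0.0915 to 0.0293 for Slc17a6, -0.0261 to 0.0678 for Camk2a, -0.0136 to 0.0302 for Mef2c, -0.0204 to 0.067 for Bhlhe22, -0.0191 to 0.0902 for Lhx2, -0.0217 to 0.0499 for Cux1, -0.0246 to 0.0318 for Cux2, -0.0537 to 0.0142 for Rorb, -0.0111 to 0.0565 for Rasgrf2, -0.148 to 0.00687 for Otof, -0.0045 to 0.0754 for Cdh13, -0.0237 to 0.0654 for Pcp4, -0.0849 to 0.0294 for Pou3f1, -0.00297 to 0.0865 for Hs3st4, -0.104 to 0.0353 for Syt6, -0.0222 to 0.0521 for Tle4 and -0.0371 to 0.225 for Ctgf. Nxph4 had the fewest counts, 12 to 52 per library.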
